A study of Homo sapiens with 6 samples.

Results

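The peaks described here lie outside the primary chromosomes of the human reference, on sequences named with the ending _alt or _random or the beginning chrUn_. They were chosen by that name alone and number 331 of 78785 peaks in 3 lists, on 72 sequences. The lists come from run-on sequencing of K562, an established human leukaemia line (labelled lymphoblastoid), grown without treatment. Run-on sequencing adds a biotin-labelled nucleotide to RNA that engaged polymerases are still making, so its reads mark sites of ongoing transcription, and dREG is a classifier that finds promoters and enhancers from the pattern of those reads on both strands. The group PRO-seq 1M followed the published protocol on 1M permeabilized cells with 3 affinity purifications and 11 cycles of PCR. The group qPRO-seq 1M followed the quick protocol, with 1 affinity purification, on the same number of cells and with 11 cycles, and qPRO-seq 250k followed it on 250k cells with 14 cycles. Each group had 2 biological replicates at least 3 passages apart, but 1 peak list that stands for both. The variation among replicates is therefore not known, and groups were compared without a test. Read depth is unknown for every list, so a longer list cannot be told apart from a deeper one. Intervals in parentheses are 95% intervals for counting error alone, and they are too narrow because neighbouring peaks are not independent.

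A reference genome represents each chromosome by 1 path, and adds 3 kinds of further sequence. Alternate scaffolds are second versions of a stretch where human haplotypes differ greatly, with the major histocompatibility complex (MHC) of chromosome 6 as the best known case. Random scaffolds are assigned to a chromosome but have no place on it, and unplaced scaffolds are assigned to none. Both kinds are rich in repeats and in gene families with nearly identical copies. A read that fits a chromosome and its alternate equally well has no single place, so what is listed on either depends on how such reads were treated, which is not given in the sources used here. The MHC encodes the HLA proteins that present peptides to T cells, the transporter and proteasome subunits that supply those peptides, complement and cytokine genes, and many housekeeping genes in between. K562 cells are known for very low HLA class I on their surface.

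Letters of the scaffolds were not used here, so the sequences shown are those of the chromosome 6 stretch that the alternates replace. They are promoters from RefSeq on GRCh38.p14, 250 bases before to 50 after the annotated start, written 5′ to 3′ on the gene's strand in lower case, with each CG dinucleotide in capitals. HLA-B (a classical class I heavy chain), TAP1 (a subunit of the peptide transporter), TUBB (a beta-tubulin) and BRD2 (a bromodomain protein that binds acetylated histones) are shown because they are 4 promoters of different function inside the stretch. The nearest peak of any list was at least 46192 bp away from each of these 4.
HLA-B: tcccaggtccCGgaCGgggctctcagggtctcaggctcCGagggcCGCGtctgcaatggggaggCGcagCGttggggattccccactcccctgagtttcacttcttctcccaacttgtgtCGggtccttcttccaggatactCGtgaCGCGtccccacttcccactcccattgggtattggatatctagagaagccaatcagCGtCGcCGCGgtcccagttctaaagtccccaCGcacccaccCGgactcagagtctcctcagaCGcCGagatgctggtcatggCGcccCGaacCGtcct
TAP1: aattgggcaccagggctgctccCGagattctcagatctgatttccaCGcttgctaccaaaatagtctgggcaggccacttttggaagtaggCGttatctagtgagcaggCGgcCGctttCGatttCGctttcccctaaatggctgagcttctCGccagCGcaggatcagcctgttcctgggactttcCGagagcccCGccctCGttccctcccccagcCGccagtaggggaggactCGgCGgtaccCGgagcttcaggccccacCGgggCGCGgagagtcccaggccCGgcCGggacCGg
TUBB: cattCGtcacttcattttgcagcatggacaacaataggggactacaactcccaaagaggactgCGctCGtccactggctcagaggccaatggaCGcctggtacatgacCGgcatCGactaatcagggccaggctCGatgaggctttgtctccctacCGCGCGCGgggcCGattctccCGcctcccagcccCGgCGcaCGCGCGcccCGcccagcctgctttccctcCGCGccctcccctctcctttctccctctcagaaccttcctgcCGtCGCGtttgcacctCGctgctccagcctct
BRD2: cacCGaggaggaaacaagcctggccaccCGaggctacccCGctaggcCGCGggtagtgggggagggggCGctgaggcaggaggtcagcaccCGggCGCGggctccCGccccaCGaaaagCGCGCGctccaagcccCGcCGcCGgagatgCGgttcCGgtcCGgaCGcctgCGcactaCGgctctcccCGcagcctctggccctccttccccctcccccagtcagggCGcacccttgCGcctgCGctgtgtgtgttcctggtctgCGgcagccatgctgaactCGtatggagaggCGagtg
ZSCAN12 (a zinc-finger gene named for its SCAN domain) is shown for contrast, since it lies on the same chromosome just outside the stretch and had a peak in all 3 lists.
ZSCAN12: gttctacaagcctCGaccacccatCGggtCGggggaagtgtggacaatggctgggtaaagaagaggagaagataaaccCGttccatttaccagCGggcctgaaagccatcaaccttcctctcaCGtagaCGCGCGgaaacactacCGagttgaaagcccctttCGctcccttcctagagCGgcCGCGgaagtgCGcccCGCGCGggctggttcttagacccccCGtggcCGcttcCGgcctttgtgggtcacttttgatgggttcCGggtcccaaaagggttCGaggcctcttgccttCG
The CG counts were 22 in HLA-B, 22 in TAP1, 25 in TUBB and 30 in BRD2, against 24 in ZSCAN12. The 4 promoters were chosen with their values in view, and all 4 lie above the third quartile of the promoters of the stretch, 21.5, so they do not stand for the stretch as a whole. Their positions are chr6:31357130-31357429 (minus strand) for HLA-B, chr6:32853655-32853954 (minus) for TAP1, chr6:30720102-30720401 (plus) for TUBB, chr6:32968344-32968643 (plus) for BRD2 and chr6:28399698-28399997 (minus) for ZSCAN12.

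The scaffold peaks numbered 74 of 24782 in PRO-seq 1M, 218 of 38397 in qPRO-seq 1M and 39 of 15606 in qPRO-seq 250k. These counts were 0.299% (0.238 to 0.375), 0.568% (0.497 to 0.648) and 0.25% (0.183 to 0.341) of the lists. The share was higher in qPRO-seq 1M than in PRO-seq 1M by 0.269 percentage points (0.166 to 0.370), and higher than in qPRO-seq 250k by 0.318 points (0.202 to 0.422). The share of PRO-seq 1M exceeded that of qPRO-seq 250k by 0.0487 points, with an interval that included 0 (-0.0611 to 0.150). In the upper part of each list, from its median score up, that order turned, with 0.113% in PRO-seq 1M and 0.141% in qPRO-seq 250k. In total peaks, the ratio of qPRO-seq 1M to PRO-seq 1M was 1.55, and in scaffold peaks it was 2.95. Against qPRO-seq 250k the ratios were 2.46 for the whole list and 5.59 for scaffold peaks. The peaks covered 27.36 kb, 78.57 kb and 14.19 kb of scaffold in the 3 lists, in the order above. They were narrower than chromosome peaks, with median widths of 355, 330 and 350 bp against 450, 440 and 430 bp.

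By kind of sequence, alternates held 217 peaks on 46 sequences, random scaffolds 44 on 14 and unplaced scaffolds 70 on 12. Alternates made up 59.5% of the scaffold peaks of PRO-seq 1M, 66.5% of those of qPRO-seq 1M and 71.8% of those of qPRO-seq 250k. The peaks were concentrated: 22 sequences with at least 5 peaks held 237 of the 331 (71.6%), while 26 sequences held a single peak. Peaks of all 3 lists occurred on 17 sequences and peaks of 2 lists on 15. Of the 40 sequences with peaks of only 1 list, 36 had them in qPRO-seq 1M.

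Counted by parent chromosome, the alternates of chromosome 6 led, with 107 peaks on 7 sequences. They held 25 peaks in PRO-seq 1M, 66 in qPRO-seq 1M and 16 in qPRO-seq 250k. Those counts were 33.8% (24.0 to 45.1), 30.3% (24.6 to 36.7) and 41.0% (27.1 to 56.6) of the scaffold peaks. Chromosome 6 itself held 5.87%, 6.18% and 6.41% of the chromosome peaks of the same lists. The lengths of the scaffolds were not taken into account. The shares are therefore not rates per length of sequence, and their difference shows no enrichment. The unplaced scaffolds followed with 20, 45 and 5 peaks. Sequences of chromosome 17 held 7, 22 and 5, those of chromosome 1 held 5, 14 and 2, and those of chromosome 15 held 3, 12 and 2. Chromosome 8 had 5, 7 and 1, chromosome 16 had 1, 9 and 2, and chromosome 22 had 1, 9 and 1. Chromosomes 11 and 2 had 7 peaks each, and chromosomes 14 and 3 had 6 each. The remaining 9 parents had 1 to 4 peaks each. In chromosome 8 alone among parents with at least 10 peaks was the PRO-seq 1M count (5) close to the qPRO-seq 1M count (7), and 4 of those 5 lay on chr8_KI270819v1_alt.

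**Figure D1:**
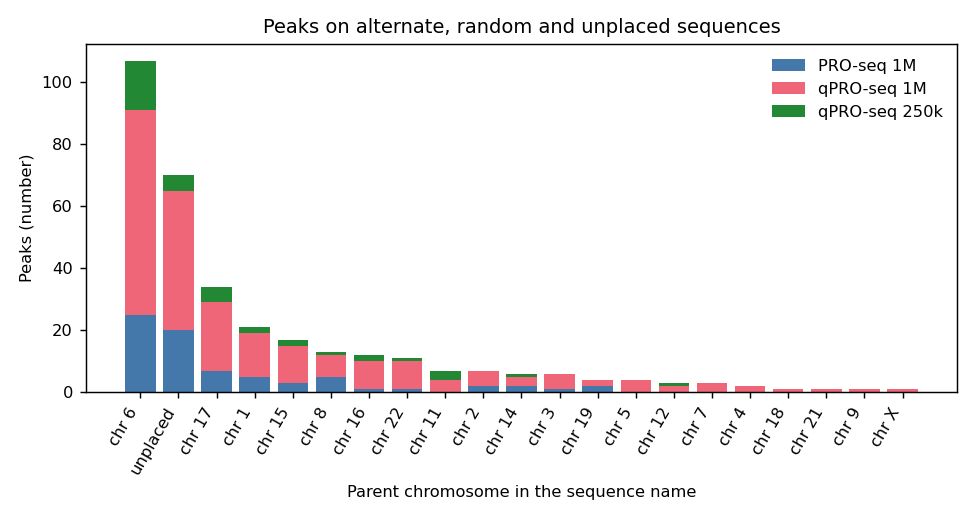
Number of peaks (vertical axis) by the parent chromosome in the sequence name (horizontal axis), stacked by peak list. Alternates of chromosome 6 hold 107 of the 331 peaks and the unplaced scaffolds 70, and qPRO-seq 1M makes up the largest part of both.

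The scaffold peaks scored low. The dREG score has no fixed unit and is compared here only by rank within its own list, as a percentile from 0 to 100. The median percentile was 24.6 in PRO-seq 1M (quartiles 9.92 and 45.7), 27.7 in qPRO-seq 1M (11.8 and 50.5) and 32.0 in qPRO-seq 250k (15.6 and 51.2). Below the median score of their list lay 60 of 74 peaks (81.1%, 70.7 to 88.4), 161 of 218 (73.9%, 67.6 to 79.2) and 28 of 39 (71.8%, 56.2 to 83.5). The top 10% of each list held 1, 5 and 0 of them, and the bottom 10% held 19, 47 and 5. Random scaffolds stood higher than alternates in the quick lists, with median percentiles of 45.6 against 24.6 in qPRO-seq 1M and 47.2 (6 peaks) against 29.4 in qPRO-seq 250k. In PRO-seq 1M the medians were 27.1 and 23.9. Unplaced scaffolds had medians of 24.6 in PRO-seq 1M, 30.5 in qPRO-seq 1M and 48.5 (5 peaks) in qPRO-seq 250k. In both 1M lists fewer scaffold than chromosome peaks stood within 20 bp of another peak of their list: 14 (18.9%) against 40.6% in PRO-seq 1M and 34 (15.6%) against 41.9% in qPRO-seq 1M. In qPRO-seq 250k the shares were 9 of 39 (23.1%) and 26.4%, and the interval of their difference included 0 (-13.77 to 11.96 points). A deposited p-value of exactly 0 was attached to 16, 42 and 7 of them. These were 21.6%, 19.3% and 17.9% of the scaffold peaks, near the 19.6%, 21.1% and 12.4% of chromosome peaks. Of the scaffold peaks with a p of 0, 15, 36 and 6 had a score below 0.5. They were 30%, 24.2% and 27.3% of the scaffold peaks below that score, near the 25.8%, 23.1% and 25.4% on chromosomes. All 4 scaffold peaks with a score of at least 1, 1 in PRO-seq 1M and 3 in qPRO-seq 1M, had a p of 0 as well. Among chromosome peaks with such scores the share was 80.9% in PRO-seq 1M and 96.6% in qPRO-seq 1M.

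Some scaffold peaks nevertheless ranked high, though few of them were in the top 10% of their list. The highest of PRO-seq 1M was chrUn_GL000219v1:99331-100030, with a score of 1.17 (percentile 97.8). Next in that list were chrUn_KI270744v1:139151-139620 (0.911, percentile 79.5) and chr1_KI270714v1_random:9451-10210 (0.889, percentile 77.5). In qPRO-seq 1M the top 3 were chr1_KI270714v1_random:9431-9960 (1.13, percentile 97.6), chr6_GL000256v2_alt:267901-268610 (1.07, percentile 95.5) and chrUn_GL000219v1:99301-100170 (1.05, percentile 94.6). In qPRO-seq 250k they were chr1_KI270713v1_random:21621-22080 (0.885, percentile 89.2), chrUn_KI270744v1:139111-139610 (0.873, percentile 88.3) and chrUn_GL000219v1:99331-100040 (0.869, percentile 88.0). The top 3 of the 3 lists thus came from 5 sequences, and 8 of these 9 peaks lay on random or unplaced scaffolds, which held 114 of the 331 peaks. All 9 were overlapped by at least 1 other list, but several are the same place met again in another list. Of all chromosome peaks, 8.53% in PRO-seq 1M, 33.3% in qPRO-seq 1M and 2.29% in qPRO-seq 250k were overlapped by no other list. Chromosome peaks of equally high score were not set beside the 9.

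Scaffold peaks recurred between lists less often than chromosome peaks, where a recurrence is an overlap of at least 1 bp. Of the PRO-seq 1M peaks, 55 of 74 (74.3%, 63.3 to 82.9) were overlapped by qPRO-seq 1M, against 90.6% of chromosome peaks. The difference was -16.2 points (-27.2 to -7.66). By qPRO-seq 250k, 23 of 74 (31.1%) were overlapped, against 60.2%. Of the qPRO-seq 1M peaks, 56 of 218 (25.7%, 20.3 to 31.9) were overlapped by PRO-seq 1M, against 63.3%, a difference of -37.6 points (-43.0 to -31.4). By qPRO-seq 250k, 33 of 218 (15.1%) were overlapped, against 44.1%. Of the qPRO-seq 250k peaks, 24 of 39 (61.5%) were overlapped by PRO-seq 1M, against 91.2%, and 32 of 39 (82.1%) by qPRO-seq 1M, against 96.6%. The interval of the difference lay below 0 in all 6 directions. It stayed below 0 under all 5 other settings of overlap, p, score and merging for qPRO-seq 1M peaks in both other lists and for qPRO-seq 250k peaks in PRO-seq 1M, but not for the other 3 directions. Among peaks at or above the median score, all 14 PRO-seq 1M scaffold peaks were overlapped by qPRO-seq 1M (100%), against 90.8% on chromosomes.

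Low-scored peaks recur less on chromosomes too, so the chromosome shares were also weighted to the score deciles of the scaffold peaks. In the order of the 6 directions above they became 83.2%, 41.2%, 49.6%, 29.3%, 87.9% and 95.2%. The scaffold share was below each of these. Intervals of the gaps treat the weighted chromosome share as free of error. The gap was smallest for PRO-seq 1M peaks in qPRO-seq 1M, at -8.83 points (-19.8 to -0.253), and largest for qPRO-seq 250k peaks in PRO-seq 1M, at -26.4 points (-42.0 to -12.8). In 1 direction, PRO-seq 1M peaks in qPRO-seq 250k, its interval included 0 (-10.2 points, -19.5 to 1.10).

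**Figure D2:**
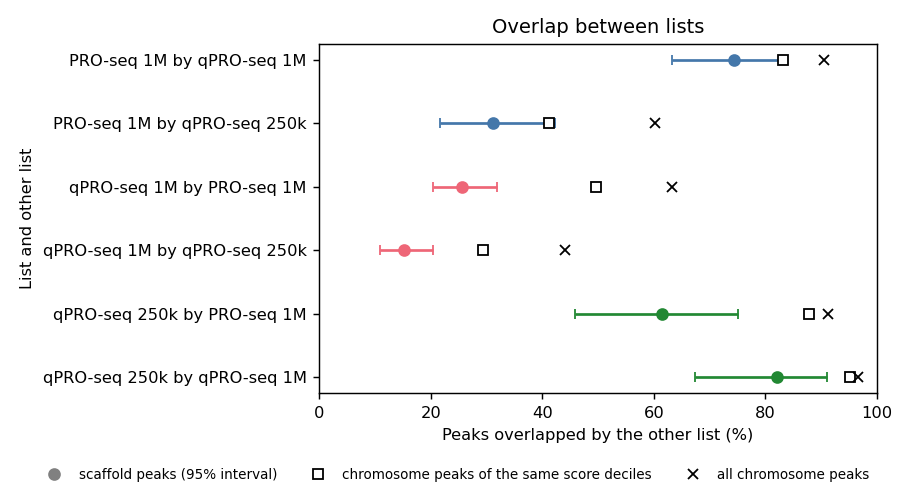
Share of the peaks of one list that another list overlaps, in percent (horizontal axis), for the 6 ordered pairs of lists. Circles with 95% intervals are scaffold peaks, squares are chromosome peaks weighted to the same score deciles and crosses are all chromosome peaks; the circles lie left of the squares and crosses in all 6.

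Peaks found in no other list were 19 of 74 (25.7%) in PRO-seq 1M, 151 of 218 (69.3%) in qPRO-seq 1M and 7 of 39 (17.9%) in qPRO-seq 250k. Among chromosome peaks these shares were 8.53%, 33.3% and 2.29%. Peaks that both other lists overlapped were 31.1%, 10.1% and 61.5% of the scaffold peaks, against 59.3%, 40.7% and 90.1% of chromosome peaks. The recurring peaks scored higher by the median, with percentiles of 30.3 in PRO-seq 1M, 56.8 in qPRO-seq 1M and 45.2 in qPRO-seq 250k. The medians of peaks in no other list were 9.79, 21.6 and 24.4. In qPRO-seq 250k, where the latter were just 7, the lower quartile was 15.3 for recurring peaks and 16.4 for the others.

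**Figure D3:**
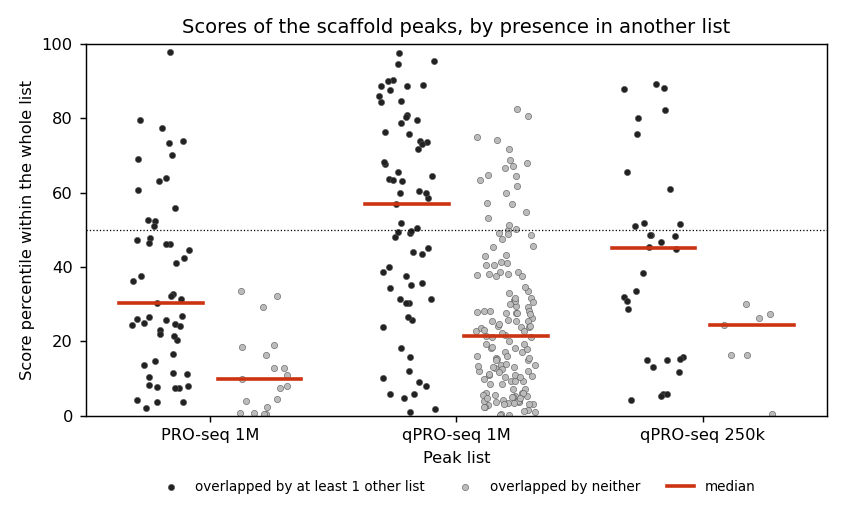
Score percentile of each scaffold peak within its whole list (vertical axis), by list, with peaks that at least 1 other list overlaps in black and the others in grey. Red bars are medians; the black medians are 30.3, 56.8 and 45.2 and the grey ones 9.79, 21.6 and 24.4.

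The recurrence was also compared between kinds of sequence, where some counts were small and the intervals given overlapped. All 11 qPRO-seq 250k peaks on random and unplaced scaffolds were overlapped by qPRO-seq 1M (100%, 74.1 to 100), as were 15 of 16 on chromosome 6 alternates (93.8%, 71.7 to 98.9). On the other alternates it was 6 of 12 (50.0%, 25.4 to 74.6). Of those not overlapped, 3 lay within 1.03 kb on a single scaffold, chr11_KI270830v1_alt. In qPRO-seq 1M, 16 of 66 peaks on chromosome 6 alternates (24.2%, 15.5 to 35.8) were overlapped by qPRO-seq 250k, against 6 of 79 on other alternates (7.59%, 3.53 to 15.6). In PRO-seq 1M, the shares overlapped by qPRO-seq 1M were 76.0% of 25 peaks on chromosome 6 alternates, 73.7% of 19 on other alternates and 73.3% of 30 on random and unplaced scaffolds. The differences between the kinds were not tested.

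Joining the overlapping scaffold peaks of the 3 lists gave 233 regions. Of these, 151 (64.8%, 58.5 to 70.7) came from qPRO-seq 1M alone, against 37.0% of the regions made the same way on chromosomes. Peaks of all 3 lists met in 19 regions (8.15%, 5.28 to 12.4), against 34.5% on chromosomes. The other regions were 29 in both 1M lists (12.4%, against 18.3% on chromosomes) and 19 in PRO-seq 1M alone (8.15%, against 6.14%). Another 8 were in both quick lists (3.43%, against 2.54%) and 7 in qPRO-seq 250k alone (3.00%, against 1.04%). No region joined PRO-seq 1M with qPRO-seq 250k without qPRO-seq 1M, a class that was rare on chromosomes too (0.379%). The 19 regions of all lists lay on 15 sequences, 12 of the 19 on alternates, 5 on unplaced and 2 on random scaffolds. In the 15 of them with 1 peak per list, the centres of the 3 peaks spread over a median of 60 bp (10 to 180 bp). The percentile was highest in qPRO-seq 1M in 14 of the 19 regions (73.7%, 51.2 to 88.2), in qPRO-seq 250k in 3 and in PRO-seq 1M in 2. Of 11852 such regions on chromosomes, 59.8% were highest in qPRO-seq 1M, a share inside that interval. Another 11.0% were highest in qPRO-seq 250k and 29.2% in PRO-seq 1M. The percentile was lower in PRO-seq 1M than in qPRO-seq 1M in 17 of the 19 regions (89.5%, 68.6 to 97.1). On chromosomes this share was 67.3%, outside the interval. Percentiles come from lists of different lengths, so a difference between lists in the percentile of a region shows no change in it.

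The strongest of the regions in all lists was chrUn_GL000219v1:99301-100170, with percentiles of 97.8 in PRO-seq 1M, 94.6 in qPRO-seq 1M and 88.0 in qPRO-seq 250k. It was high in every list. Next came chrUn_KI270744v1:139111-139640, with percentiles of 79.5, 90.2 and 88.3 in the same order. The region chr1_KI270713v1_random:21621-22460 had percentiles of 68.9, 88.7 and 89.2, and is described with its gene below. On chromosome 6 alternates, chr6_GL000255v2_alt:2070121-2070800 had percentiles of 44.6, 86.0 and 80.2. The region chr6_GL000251v2_alt:2205401-2206390 had 46.2, 76.3 and 82.3. The region chrUn_GL000220v1:30421-30950 had 70.2, 90.2 and 48.5, and chr6_GL000255v2_alt:2454221-2456080 had 63.1, 87.7 and 48.5. The latter was made of 11 peaks, 4 of PRO-seq 1M, 3 of qPRO-seq 1M and 4 of qPRO-seq 250k. The regions chr8_KI270816v1_alt:107491-107880 (73.3, 73.7 and 51.8), chr22_KI270879v1_alt:266811-267440 (63.9, 79.5 and 51.0) and chrUn_KI270754v1:17861-18340 (73.9, 63.0 and 46.8) complete the first 10. The other 9 regions of all lists had lower mean percentiles.

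Taking the highest-ranked region of each of the 22 sequences with at least 5 peaks, 10 were in all lists, 5 in 2 and 7 in 1. Their highest percentile ranged from 15.7 to 97.8 with a median of 73.7. The lowest was chr6_GL000250v2_alt:3147911-3148240, found in qPRO-seq 1M alone. At the other end, chr6_GL000256v2_alt:267901-268610 had a percentile of 95.5 in qPRO-seq 1M, 11.7 in qPRO-seq 250k and no peak in PRO-seq 1M. On chr17_GL000205v2_random, the region 140571 to 141060 had 80.8 in qPRO-seq 1M and 60.9 in qPRO-seq 250k, and none in PRO-seq 1M. On chr17_KI270908v1_alt, the region 1069281 to 1069630 had percentiles of 23.2, 73.8 and 15.1, and on chr15_KI270905v1_alt, 1013451 to 1013960 had 4.34, 38.7 and 48.3. The top regions of chrUn_KI270742v1 (75.01), chrUn_GL000224v1 (71.8), chr2_GL383522v1_alt (67.2), chrUn_GL000195v1 (66.8), chr17_KI270857v1_alt (54.8) and chr6_GL000253v2_alt (38.3) were found in qPRO-seq 1M alone. Those of chr8_KI270819v1_alt (55.8 and 73.1), chr16_KI270853v1_alt (25.9 and 58.5) and chrUn_KI270438v1 (7.65 and 56.8) were found in PRO-seq 1M and qPRO-seq 1M.

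Genes could be looked up on random and unplaced scaffolds only. GENCODE 29 annotates 22 such sequences, of which 12 carried a peak, with 70 of the 114 random and unplaced peaks. An annotated start of transcription was at most 500 bp away from 4 of 21 peaks in PRO-seq 1M (19.0%, 7.67 to 40.0), 4 of 39 in qPRO-seq 1M (10.3%, 4.06 to 23.6) and 2 of 10 in qPRO-seq 250k (20%, 5.67 to 51.0). On chromosomes the same window gave 68.1%, 54.2% and 73.5%. The density of annotated starts was not compared between scaffolds and chromosomes, so these shares cannot be set side by side directly. On chrUn_KI270744v1, for example, all 17 peaks had the same small nuclear RNA gene as the nearest, at least 48334 bp away. The starts concerned were those of 3 genes.

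The gene with the most peaks was RF00003, a copy of the U1 small nuclear RNA, at chr1_KI270713v1_random:21861-22024 on the minus strand. U1 is the RNA of the particle that recognizes the 5′ splice site, and its genes are short, highly transcribed by RNA polymerase II and present in many near-identical copies. PRO-seq 1M had peaks at 21251 to 21610, 21631 to 22050 and 22071 to 22450, with percentiles of 24.8, 68.9 and 52.3. In qPRO-seq 1M the peaks were 21411 to 21610, 21631 to 22100 and 22121 to 22460, with percentiles of 8.97, 88.7 and 71.7. In qPRO-seq 250k they were 21621 to 22080 and 22101 to 22380, with 89.2 and 75.9. All 3 lists thus had their highest peak over the gene itself and a second, lower one just upstream of its start. The chromosome copy RNU1-1, from GENCODE 29 transcripts at chr1:16514122-16514285 on the minus strand, is shown because the scaffold copy belongs to the same family; capitals mark bases 3 to 11, which pair with the 5′ splice site.
RNU1-1: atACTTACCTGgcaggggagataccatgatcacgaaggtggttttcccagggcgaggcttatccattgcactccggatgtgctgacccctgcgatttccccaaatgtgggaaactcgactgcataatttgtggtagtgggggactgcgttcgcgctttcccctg
Of the 28 annotated U1 copies on chromosomes, 5 others are identical to these 164 bases, and all 5 had a start peak in each list. A start peak was present at 18 of the 28 in PRO-seq 1M, 21 in qPRO-seq 1M and 17 in qPRO-seq 250k. Whether the scaffold copy is identical to any of them was not analysed here, and reads shared between copies cannot be assigned to one of them.

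The second gene was AC145212.1, a protein-coding model on chr14_GL000194v1_random, with a PRO-seq 1M peak at 114871 to 115280 over its start (percentile 29.4). The third was AC023491.2 on chr22_KI270731v1_random, with a qPRO-seq 1M peak at 13491 to 13850 (percentile 9.46) that lay 490 bp from its start. Both peaks were in a single list and ranked low. The strongest region of all, on chrUn_GL000219v1, lay at none of the annotated starts.

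The 7 alternates of chromosome 6 are the haplotype versions of the MHC, known by the names APD (GL000250v2), COX (GL000251v2), DBB (GL000252v2), MANN (GL000253v2), MCF (GL000254v2), QBL (GL000255v2) and SSTO (GL000256v2). The chromosome carries the haplotype of another cell line at that place. QBL held 54 of the 107 peaks (50.5%), with 16 in PRO-seq 1M, 30 in qPRO-seq 1M and 8 in qPRO-seq 250k. It led in each list. SSTO held 3, 10 and 3, COX 2, 10 and 3, and MANN 3, 6 and 0. MCF held 1, 1 and 2. APD and DBB held 5 and 4 peaks, all of qPRO-seq 1M. On QBL, 53 of the 54 peaks lay between 2070121 and 3397480, a span of 1.33 Mb, and the last, of qPRO-seq 1M alone, lay at 4471181 to 4471510.

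**Figure D4:**
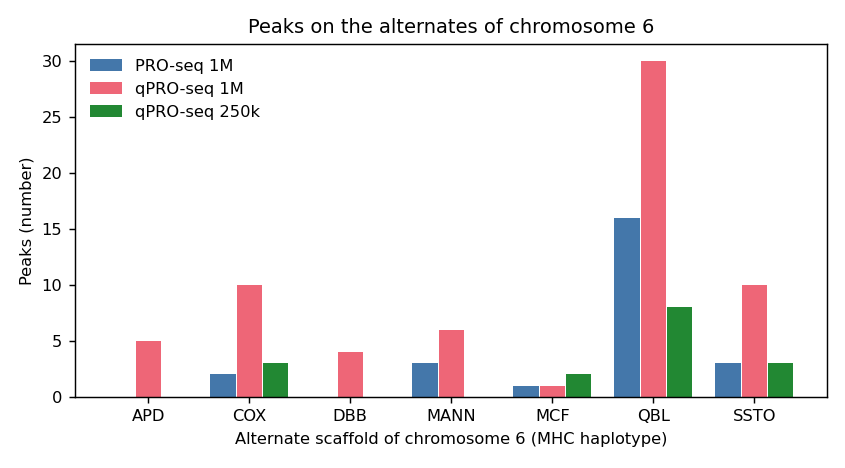
Number of peaks (vertical axis) on each alternate scaffold of chromosome 6, named by its MHC haplotype (horizontal axis), by peak list. QBL holds 16, 30 and 8 peaks, the most in each list, and APD and DBB hold peaks of qPRO-seq 1M alone.

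The 107 peaks joined into 69 regions, 8 in all lists, 12 in 2 and 49 in 1, of which 42 came from qPRO-seq 1M alone. Of the 8 regions in all lists, 4 lay on QBL. The 2 of these not yet given were 2256271 to 2257000, with percentiles of 26.5, 75.9 and 65.5, and 3071611 to 3072140, with 20.4, 84.8 and 4.16. Of the remaining 4, COX had 2, at 2205401 to 2206390 (above) and 2204741 to 2205260, the latter with 52.5, 88.8 and 32.0. MCF had 1 at 3240571 to 3241050, with 24.5, 88.9 and 44.9, and SSTO 1 at 174911 to 175250, with 13.7, 35.8 and 30.8. As a group the chromosome 6 alternates had median percentiles of 26.1, 26.8 and 35.3, close to those of all scaffold peaks.

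On chromosome 6 itself, the same MHC was almost without peaks. Peak-free gaps over 200 kb that follow each other around TUBB formed a stretch of 4.80 Mb, chr6:28616451-33414460. Its longest single gap, 2.20 Mb with 50 coding genes, had rank 4 by length among the peak-free gaps of chromosome 6. The gaps ahead of it, of 4.44, 3.61 and 2.28 Mb, lay elsewhere and held 1, 0 and 4 coding genes. One of the joined gaps was just 0.217 Mb long, and with a limit of 300 kb the stretch was 2.79 Mb. PRO-seq 1M and qPRO-seq 250k had no peak in it, and their own gaps around TUBB were longer, at 4.95 Mb (chr6:28616431-33570810) and 5.08 Mb (chr6:28492131-33571190). The gap of qPRO-seq 1M around TUBB was 2.20 Mb (chr6:28616451-30815380). The stretch was not wholly empty, since qPRO-seq 1M had 3 peaks in it. One at chr6:30815381-30815770 (percentile 1.84) lay at no start, 14889 bp from that of LINC00243. The others lay at starts of MICA, a stress-induced ligand of natural killer cells (chr6:31403371-31403710, percentile 11.4), and of PRRC2A, a proline-rich coiled-coil protein (chr6:31620331-31620740, percentile 21.4). All 3 were low-scored. The 5 Mb before the stretch held 226, 338 and 193 peaks in the 3 lists, and the 5 Mb after it held 119, 176 and 83. The peaks before it lay mostly in the nearest 3 Mb; in PRO-seq 1M the 2 farther blocks of 1 Mb held 4 and 8. Inside it, the chromosome held 0, 3 and 0 peaks, and its alternates together 25, 66 and 16. Which of the alternate peaks have their counterpart inside the stretch was not analysed here.

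**Figure D5:**
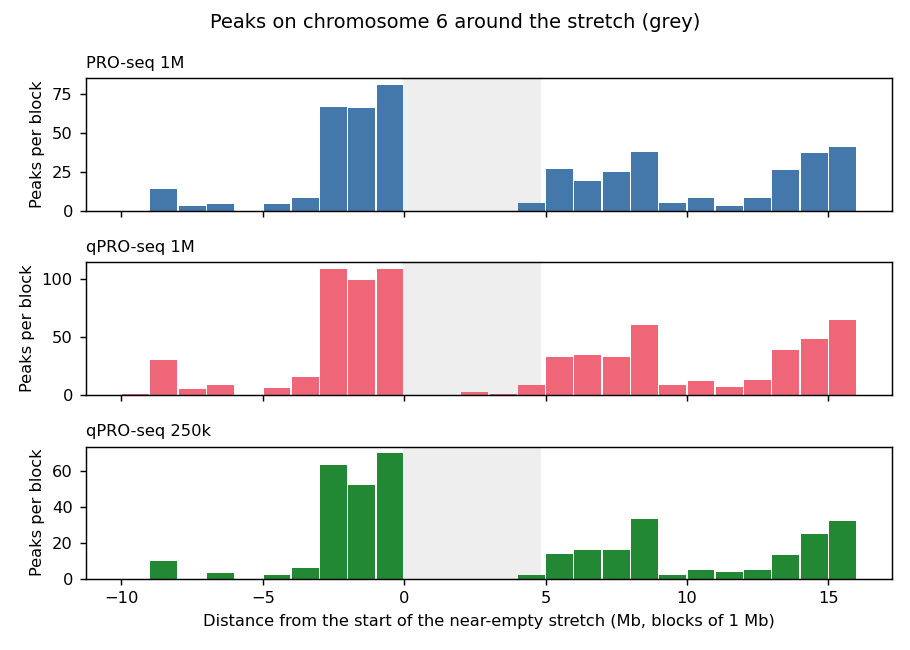
Peaks per block of 1 Mb on chromosome 6 (vertical axes, 1 panel per list) by distance from the start of the near-empty stretch in Mb (horizontal axis), with the stretch in grey. Inside it PRO-seq 1M and qPRO-seq 250k have 0 peaks and qPRO-seq 1M has 3; bars in the last part of the grey area come from blocks that extend past its end.

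The stretch is gene-rich. It was defined by its lack of peaks, so a low share of genes with a start peak follows from that definition. It is no separate result. Of its 175 protein-coding genes, 0 in PRO-seq 1M, 3 in qPRO-seq 1M (1.71%, 0.585 to 4.92) and 0 in qPRO-seq 250k had a peak at a transcript start (at most 500 bp away). Over all chromosomes the shares were 52.9%, 54.5% and 44.0%. The 3 genes were MICA, PRRC2A and PHF1, the last through the peak that bounds the stretch. In the 109 genes of the flank before it the shares were 58.7%, 61.5% and 53.2%, and in the 66 genes of the flank after it 63.6%, 65.2% and 57.6%. In the other 869 genes of chromosome 6 they were 56.3%, 57.2% and 49.5%.

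A list of 75 MHC genes was looked up to describe which functions lie in the stretch. The list named HLA class I and class II genes, antigen processing genes (TAP1, TAP2, TAPBP, PSMB8, PSMB9), cytokine and complement genes (TNF, LTA, LTB, C4A, C4B), heat shock genes (HSPA1A, HSPA1B, HSPA1L) and housekeeping genes such as RPS18, a ribosomal protein, CSNK2B, a kinase subunit, and DDX39B, an RNA helicase. All 75 lay in the stretch, so their lack of start peaks again follows from how it was defined. None had a start peak in PRO-seq 1M or in qPRO-seq 250k, and 2 had one in qPRO-seq 1M, MICA and PRRC2A. The median distance from a gene to the nearest peak was 1450 kb, 264 kb and 1537 kb. For the promoters printed above, the nearest qPRO-seq 1M peak was 46192 bp from HLA-B, 95029 bp from TUBB, 445867 bp from BRD2 and 560757 bp from TAP1. The list names genes that most cells transcribe as well as HLA genes. Whether they are transcribed in K562 was not tested. Which of these genes underlie the peaks on the alternates was not analysed here, as gene positions on the alternates were not used.

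The promoters of the stretch were counted for CG on the same 300 bases as those printed. The 199 promoters had a median of 11 CG (quartiles 4 and 21.5), and 112 (56.3%, 49.3 to 63.0) had at least 10. On the rest of chromosome 6, the 418 promoters with a peak in all lists had a median of 27, with 95.5% at 10 or more, and the 479 with no peak had a median of 7, with 42.4%. Over all 20956 promoters the median was 21 and the share 70.5%. The lower quartile of the promoters with a peak in all lists was 21 CG. That count was reached by 54 of the 199 promoters of the stretch (27.1%, 21.4 to 33.7) and by 131 of the 479 without a peak (27.3%, 23.5 to 31.5).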

How the data were processed

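Peak lists from 6 run-on libraries in 3 groups were analysed, 1 list per group, which the labels name for both replicates; whether reads or peaks were pooled is not given in the sources used here. Per the labels, the lists hold dREG peaks. Scores are the authors' own, as deposited, with no fixed unit. The p-value of a peak is likewise as deposited, with no statement of adjustment. Start, end and centre were deposited without a header; starts count from 0 and are printed counted from 1. Per the submitters' processing notes, the builds were hg38 and GRCh38, and fastp 0.20.0, Bowtie2 2.3.5.1, deepTools 3.1.3 and UMI-tools were used, with no role given for any of them. The handling of reads with several places, and the dREG version and thresholds, are not given in the sources used here. Per the labels, paired reads of 37 nt were taken and both adapters held random identifiers of 6 nt. Read depth is unknown.

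Members were the peaks on sequences named with _alt, _random or chrUn_. The members, gene list and comparisons were chosen with earlier results of these data known. Chromosomes 1 to 22 and X served as background. Percentiles are midranks within a list. Shares have Wilson and differences Newcombe 95% intervals, computed with Python 3.11.15, numpy 2.4.6 and pandas 2.3.3, and the calculations were tested on simulated data. Chromosome overlap was averaged over 10 score deciles weighted as the members fall in them. For gaps to this average, the interval is instead the Wilson interval of the scaffold share minus the average. The average was thus treated as free of error. Genes came from GENCODE 29 and promoters from RefSeq on GRCh38.p14, on both of which positions refer to GRCh38; CG was counted on the printed strand, which gives the same count on the other. The peaks named were the 3 top-scored of each list, the regions found in all 3 lists (the 10 with the highest mean percentile in full, and those on chromosome 6) and the top region of each sequence with 5 or more peaks; the promoters shown, the U1 sequence and the genes of the closing section were picked with their values in view. Alternatives were a limit of 0.01 on p, merging within 500 bp, a score limit at the list's median, overlap of 50% of both peaks, centres within 100 bp, subsets of sequences, each list alone for the stretch, a window of 1000 bp around starts and, chosen after seeing the data, gap limits of 100, 300 and 500 kb for the stretch. One gene of the MHC is not reported here.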

Additional observations from a re-analysis of the deposited data

How the results depend on the processing

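No paired analysis was possible because each group has 1 list that stands for both replicates, and for the same reason no replicate could be left out. The search for chromosome counterparts of the members was not run, as the scaffold sequences were not used here. Of 134 alternative values, 108 stayed close (within 1.5 times the count or length, within the interval of the share or percentile, or on the same side of 0), 19 moved, 5 differences came to include 0 and 2 turned direction. The number of scaffold peaks was 14, 57 and 11 (PRO-seq 1M, qPRO-seq 1M, qPRO-seq 250k) at or above the median score of the list, and 30, 73 and 11 on random and unplaced scaffolds alone. On alternates alone it was 44 in PRO-seq 1M and 145 in qPRO-seq 1M. At or above the median score the scaffold share of the list was 0.113%, 0.297% and 0.141%, still highest in qPRO-seq 1M; the difference of PRO-seq 1M from qPRO-seq 250k turned to -0.0280 points. For qPRO-seq 1M it was 0.482% at p up to 0.01 and 0.745% after merging within 500 bp. At or above the median score, the share of PRO-seq 1M scaffold peaks overlapped was 100% by qPRO-seq 1M (14 peaks) and 42.9% by qPRO-seq 250k, and the chromosome 6 share of PRO-seq 1M was 21.4%. At p up to 0.01, qPRO-seq 1M overlapped 93.3% of the scaffold peaks of qPRO-seq 250k. Scaffold minus chromosome overlap of PRO-seq 1M by qPRO-seq 1M turned to 9.20 points (-12.3 to 9.72) at or above the median score and was -9.93 (interval to 0.136) for centres within 100 bp. By qPRO-seq 250k it was -16.1 at or above the median score, with an interval that included 0. For qPRO-seq 250k by qPRO-seq 1M it was -2.97 at p up to 0.01, -6.42 at or above the median score and -7.10 for centres within 100 bp, all with intervals that included 0. The limits leave smaller numbers, and the cause of these shifts was not tested. The length of the chromosome 6 stretch ranged from 4.80 to 5.08 Mb under the limits planned, but limits of 300 and 500 kb on the joined gaps, chosen after seeing the data, both gave 2.79 Mb; 100 kb gave 4.80 Mb. Unknown depth limits every comparison between lists.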

Other observations

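Gene-rich stretches without a peak in any of the 3 lists were ranked over chromosomes 1 to 22 and X by their number of protein-coding genes. Both of the first ranks lay in the chromosome 6 stretch: chr6:31620741-33414460, with 96 genes from PRRC2A to PHF1, and chr6:28616451-30815380, with 50 genes from TRIM27 to IER3, 14 of which carry olfactory receptor names. A stretch of chromosome 17 with keratin genes, KRT12 to KRT36, had 48 genes, one of chromosome 8 had 41, one of chromosome 19 from VSTM1 to EPS8L1 had 41, one of chromosome 11 had 38, 36 of them olfactory receptors, and one of chromosome 1 from TCHHL1 to SPRR3 had 35. A stretch of chromosome 21 from GRIK1 to TIAM1 had 37, and one of chromosome 14 from GOLGA5 to DICER1 had 33. In all, 64 stretches held at least 10 coding genes. The part of the MHC between PRRC2A and PHF1 contains housekeeping genes such as RPS18 and CSNK2B. This is a description, with no test.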
